A study of Mus musculus with 12 samples.

Results

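This section describes a comparison between Ly6c-low cells sorted from the heart 30 days after cryoinjury and Ly6c-high cells sorted 3 days after it. It covers 6 of the 12 RNA-seq samples of the study, 3 of each group, chosen by their labels alone. The other 6 samples, Ly6c-low cells from uninjured hearts (day 0, no surgery) and from day 7, are used to place the levels. They also enter the filter on mean signal and the pooled spread behind each standard error and p-value. All mice were 2-3 months old and carried the Cx3cr1GFP/+ genotype, in which GFP replaces 1 allele of Cx3cr1, so the day 0 mice also had a single intact copy of that gene. Cryoinjury, freezing of part of the heart wall, served as the model of infarction. The labels describe the day 3 cells as Ly6c-high and CX3CR1-low, and the cells of days 0, 7 and 30 as Ly6c-low and CX3CR1-high. Gate and time after injury therefore changed together, and their effects cannot be told apart. The labels speak of independent biological replicates but not of how many animals went into each, so p-values cover the spread between these samples.

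Ly6C-high monocytes are made in the bone marrow and spleen, circulate in blood and enter injured tissue through the receptor CCR2. In the heart they are the first macrophage precursors to arrive after injury, and they take part in inflammation and clearance of debris. Ly6C-low macrophages include cells that live in the healthy heart, many of which carry LYVE1, TIMD4 and FOLR2 and clear dying cells, and cells that descend from recruited monocytes.

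Expression is given as the signal, the authors' normalised read count of a gene, which is comparable between libraries but not between genes of different length. Differences are day 30 minus day 3 in log2(signal + 1), so 1 unit is a 2-fold change for genes well above a signal of 1 and less than the true change for lower genes. Each is followed by ± its standard error (SE) and an adjusted p from limma, fitted to 12879 of 14460 genes whose mean signal was at least 1. Rose and fell mean an adjusted p under 0.05. Depth was 5828904 to 13199576 reads a library, and 3 reads, the limit that a count of 0 allows, equal a signal of 0.190 to 0.543. That limit covers counting error only.

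The libraries differed in how tightly they clustered. Between the day 30 libraries, counts differed by a chi-square of 2.21 to 2.91 per gene, where 1 is sampling noise, against 5.85 to 43.3 between day 3 libraries. The day 30 libraries were thus closer to each other than any other replicates, though beyond sampling noise. Results were also computed with them averaged into 1 sample, a fit that assumes the single sample varies like the other groups, and they are given where that ended a call or moved a count by over 1.5 times. On the first principal component, which held 48.0% of the variance, day 3 replicate 1 lay at 68.8 and the other day 3 replicates at 84.0 and 84.3. The day 30 libraries lay between -23.9 and -23.8.

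The genes used for sorting followed the labels and are given as a description only. Ly6c2 (chr15:75108158-75111970 in GRCm38, minus strand), which encodes the Ly6C antigen, had signals of 619.8, 933 and 1004 in day 3 replicates 1 to 3 and 2.81, 2.4 and 3.23 at day 30. Its neighbour Ly6c1 had 34.5, 29 and 39.3 at day 3 and 3.67, 4.38 and 3.36 at day 30. Of the 50-base words in the Ly6c1 transcripts, 32.8% also occur in other genes, most of them in Ly6c2, so its counts are uncertain. Cx3cr1, the fractalkine receptor, was at 44, 39.1 and 33.8 on day 3 and 132, 126 and 134 on day 30. The groups overlapped for none of these genes, as for 8037 of all tested genes (62.4%).

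Macrophage lineage genes were present at high levels on both days but in different proportion. Csf1r, the receptor for the macrophage growth factor CSF1, had signals of 495, 613 and 571 at day 3 and 1155, 1199.9 and 1112 at day 30, a rise of 1.05 ± 0.18, adjusted p = 0.00029. Emr1, which encodes the F4/80 antigen of mature macrophages, was at 279, 142 and 183 and then 578, 594 and 593, and rose by 1.60 ± 0.21, adjusted p = 2.4e-05. Every day 30 library stood above every day 3 library for both. Itgam, the CD11b integrin chain, fell from 1205, 1301 and 1153 to 516, 507 and 500.2 (-1.26 ± 0.15, adjusted p = 1e-05), although 66.3% of its 50-base words lie in an overlapping gene model. Cd68, a lysosomal glycoprotein of phagocytes, fell from 911, 929 and 1106 to 385, 410.3 and 375 (-1.33 ± 0.17, adjusted p = 1.6e-05). Mertk, a receptor for apoptotic cells, did not pass, with signals of 101, 50.9 and 63.7 at day 3 and 102, 104 and 92.5 at day 30 (difference 0.52 ± 0.22, adjusted p = 0.075). Its groups overlapped, as day 3 replicate 1 lay among the day 30 values. Fewer cells of a type and less RNA of a gene per cell cannot be told apart in bulk samples.

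Across all genes, 5079 of 12879 (39.4%) passed, 2470 higher (19.2%) and 2609 lower (20.3%) at day 30. Of these, 1447 rose and 1193 fell by at least 2-fold, and 31 rose and 40 fell by at least 16-fold. The median difference over all tested genes was 0.01, and -0.07 over genes averaging a signal of at least 5. The signal had been normalised by the authors, so these medians do not show that the groups were alike before that step. The 95% interval lay within 2-fold of no change for 6305 genes (49.0%). With the day 30 libraries averaged as 1 sample, 2013 genes passed, 956 higher and 1057 lower.

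Among genes averaging a signal of 10 or more, with clone and predicted names left out, the 12 largest falls included 6 members of the Ly6C-high monocyte list, among them the gate gene Ly6c2, Plac8, Vcan and Thbs1. Slfn4 (chr11:83175186-83190216, plus strand), an interferon-inducible Schlafen gene of myeloid cells, had signals of 2194, 2631 and 2817 at day 3 and 24, 23.3 and 22.5 at day 30 (-6.71 ± 0.24, adjusted p = 9.1e-11). Of its 50-base words, 10.8% also occur in other genes, mostly Slfn3. Plac8, a small cysteine-rich protein of monocytes, went from 408, 767 and 777 to 5.54, 5.79 and 6.15 (-6.52 ± 0.61, adjusted p = 8.4e-07). Vcan, the proteoglycan versican, had 573, 1045 and 774 at day 3 and 9.05, 9.61 and 11 at day 30 (-6.16 ± 0.52, adjusted p = 2.8e-07). In all 3 genes the lowest day 3 library was replicate 1, and it was still far above the highest day 30 library. Thbs1, the matricellular protein thrombospondin 1, fell from 1878, 3195 and 2745 to 42, 40.8 and 41.4 (-5.91 ± 0.25, adjusted p = 3.2e-10). Arg1, the enzyme arginase 1 that is often used to mark repair macrophages, was nearly the same in the 3 day 3 libraries, at 211, 198 and 205, and was at 3.59, 3.53 and 4.88 on day 30 (-5.37 ± 0.31, adjusted p = 4.1e-09). The other genes named here were Mmp8, Cd300lf, Rhou, Hp and Cd177, with differences from -5.39 for Mmp8 to -4.98 for Cd177.

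The 12 largest rises among the same genes included 6 members of the resident macrophage list, among them Lyve1, Cd163 and Timd4. Lyve1 (chr7:110850607-110863239 in GRCm38, minus strand), a hyaluronan receptor, had signals of 4.12, 1.06 and 1.06 at day 3 and 238, 240.0 and 239 at day 30 (6.43 ± 0.36, adjusted p = 3.2e-09). Cd163, the scavenger receptor for haemoglobin bound to haptoglobin, went from 6.04, 1.89 and 1.59 to 231, 219 and 227 (5.92 ± 0.34, adjusted p = 4.4e-09). Timd4, a receptor for the phosphatidylserine of apoptotic cells, went from 1.05, 3.66 and 0.265 to 55.2, 57.2 and 57 (4.65 ± 0.41, adjusted p = 4e-07). The day 3 signals of all 3 were low but above 0 in every library, and no library of one group reached the other. Igf1, insulin-like growth factor 1, had 47.8, 8.97 and 12.2 at day 3, with replicate 1 highest, and 453, 451 and 475 at day 30 (4.63 ± 0.39, adjusted p = 2.9e-07). Retnla, the secreted protein RELM alpha, was at 0.0958, 0.236 and 0 on day 3, all under the 3-read limit, and at 31.8, 27.4 and 29.2 on day 30 (4.78 ± 0.31, adjusted p = 1.4e-08). Slco2b1, an organic anion transporter, Lilra5, an immunoglobulin-like receptor, Mgl2, a galactose-binding lectin, Cd81, a tetraspanin, Plxna4, a semaphorin co-receptor, Hpgd, which inactivates prostaglandins, and Tanc2, a scaffold protein, rose by 4.75 to 5.90. Of the Mgl2 words, 13.1% occur in other genes, mostly Clec10a.

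**Figure D1:**
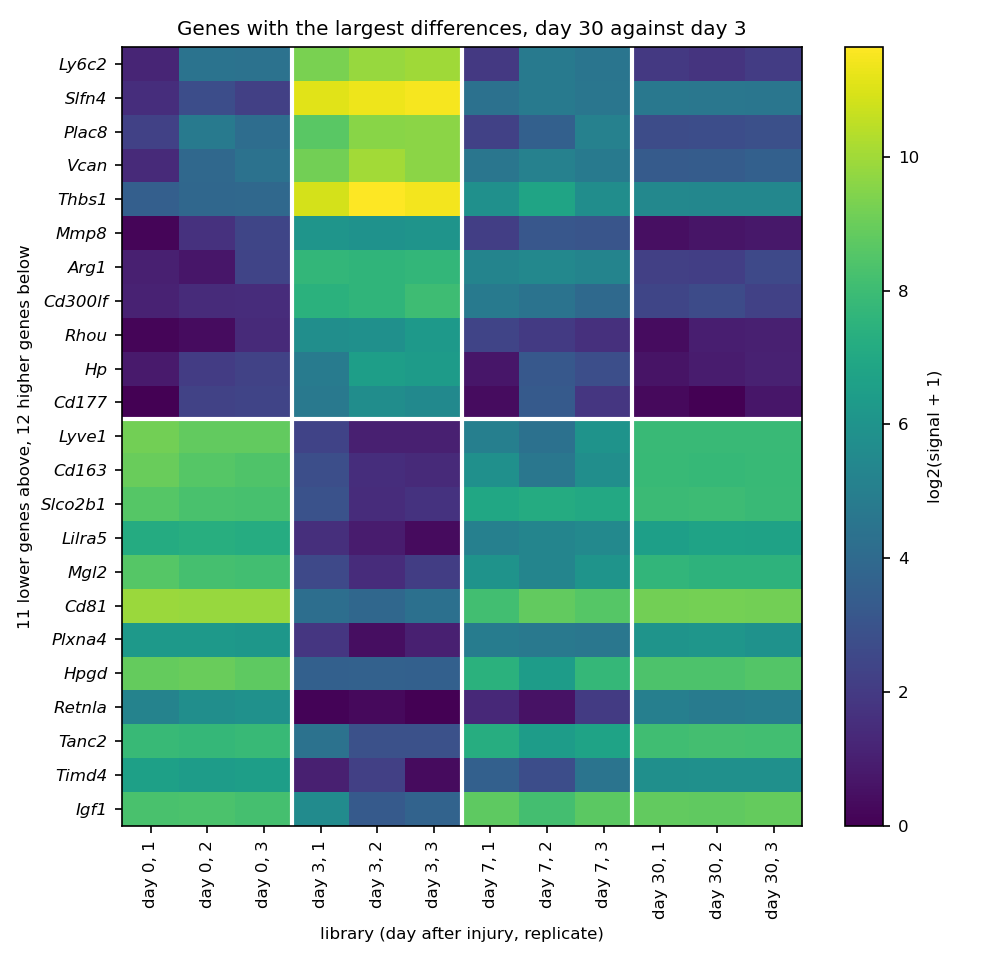
Colour shows log2(signal + 1) of 11 of the 12 genes with the largest falls (upper rows) and the 12 with the largest rises (lower rows), with a column for each of the 12 libraries. The day 3 columns are bright above and dark below, the day 30 columns the reverse, with Thbs1 at 1878 to 3195 on day 3 and 40.8 to 42.0 on day 30.

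Levels on day 30 were also set beside those of the 2 other Ly6c-low groups, in comparisons that share the day 30 libraries with the main one. In these, 5103 of 12879 genes (39.6%) differed between days 30 and 7, and 796 (6.18%) between days 30 and 0. These became 815 and 14 with day 30 averaged, and the latter 235 to 402 without any 1 of the day 30 libraries or day 0 replicates 2 and 3. Lyve1 had a mean signal of 37.8 ± 22.4 (SD) at day 7 and 499 ± 66.6 (SD) at day 0 (n = 3 each). The difference of day 30 from day 7 was 2.79 ± 0.36, adjusted p = 7.5e-05, and from day 0 it was -1.05 ± 0.36, adjusted p = 0.096. Retnla, at 1.68 ± 1.31 (SD) on day 7 and 49.3 ± 11.4 (SD) on day 0, differed from day 7 by 3.63 ± 0.31, adjusted p = 6.2e-06 and from day 0 by -0.70 ± 0.31, adjusted p = 0.19. Igf1 was already at 383 ± 81.2 (SD) on day 7 and differed by 0.29 ± 0.39, adjusted p = 0.58. Bmp2, a bone morphogenetic protein, rose from 0.862, 0.118 and 0.529 at day 3 to 34.5, 33.9 and 37.7 at day 30 (4.63 ± 0.26, adjusted p = 3.3e-09), and day 30 was above day 7 (5.06 ± 1.15 (SD)) by 2.60 ± 0.26, adjusted p = 1.7e-05. Among genes that fell, Slfn4 was at 3.71 ± 1.91 (SD) on day 0, and day 30 stood above it by 2.45 ± 0.24, adjusted p = 4e-05. Thbs1 was at 13 ± 2.2 (SD) on day 0, with day 30 higher by 1.62 ± 0.25, adjusted p = 0.0018. A call in one comparison and none in another does not show that the differences differ.

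**Figure D2:**
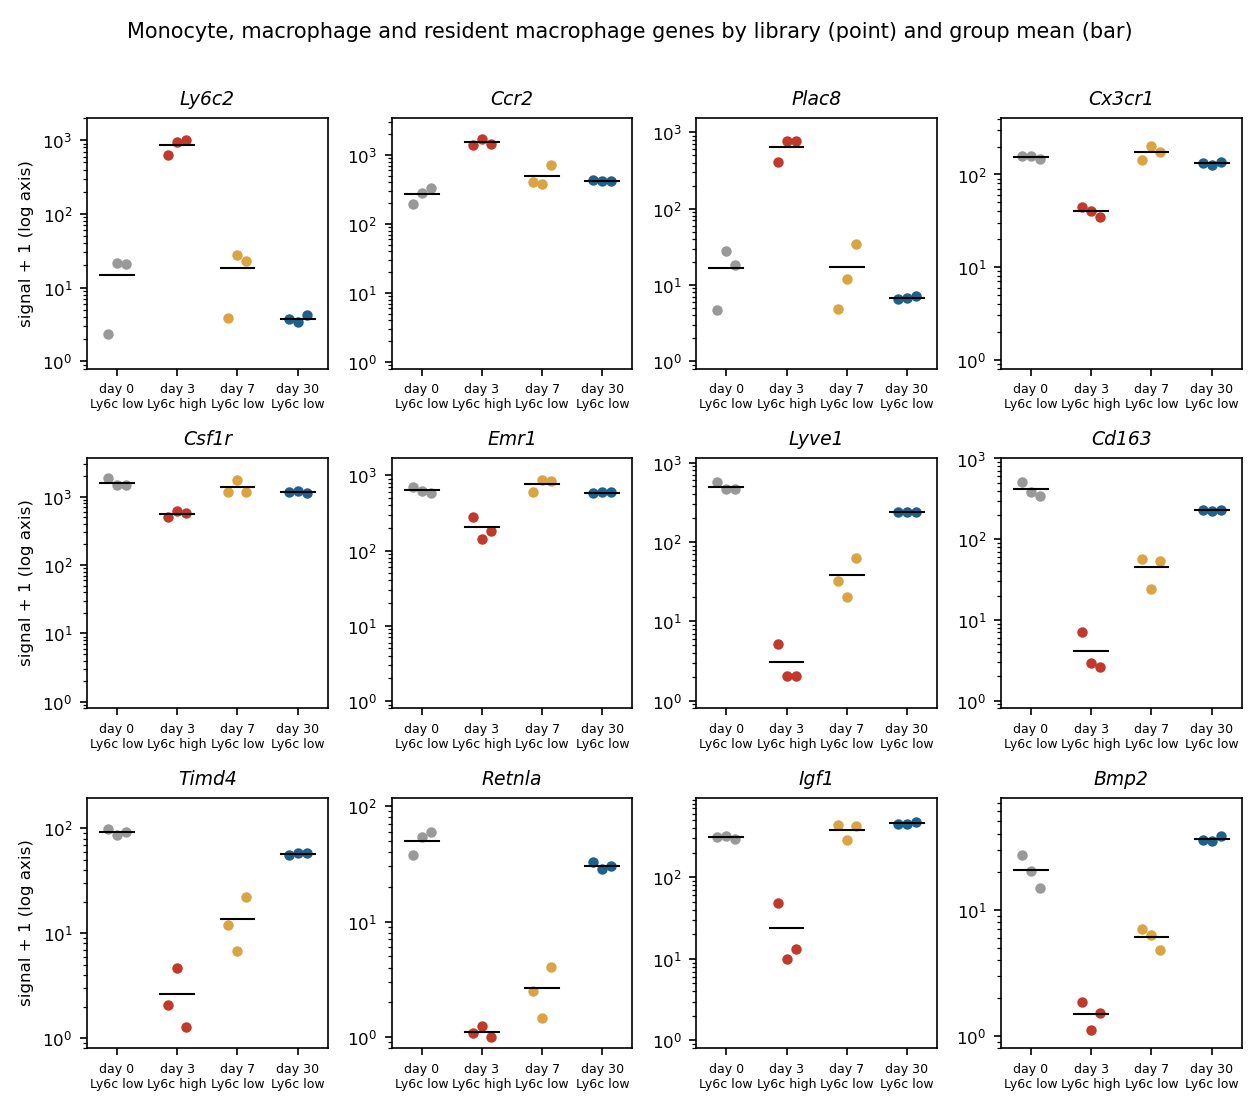
Each panel plots signal + 1 on a log axis for 1 gene, with a point for each library and a bar for the group mean, at days 0, 3, 7 and 30. Ly6c2, Ccr2 and Plac8 are highest at day 3, where Lyve1, Cd163, Timd4, Retnla, Igf1 and Bmp2 are lowest.

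Genes known from Ly6C-high monocytes were lower almost throughout at day 30. Over all tested genes 19.2% rose and 20.3% fell, which is the background for this and every later list count. Of 20 tested, 19 fell and 1 rose, with a median of -3.05, although Ly6c1 and Ly6c2 belong to the gate. Ccr2, the receptor through which monocytes follow CCL2, had signals of 1404, 1728 and 1422 at day 3 and 426, 418 and 421 at day 30, a fall of 1.84 ± 0.23, adjusted p = 1.5e-05. Its level at day 7 was 497 ± 188 (SD), and the difference of day 30 from that did not pass (-0.17 ± 0.23, adjusted p = 0.57). F13a1, the coagulation factor XIII A chain, was the member that rose, from 197, 272 and 221 to 764, 777 and 792 (1.77 ± 0.22, adjusted p = 1.7e-05). S100a8 and S100a9, alarmins of monocytes and neutrophils, fell by 2.53 ± 0.65, adjusted p = 0.0061, and 2.64 ± 0.73, adjusted p = 0.0092. Their day 3 signals were uneven, 31.8, 6.38 and 13.9 for S100a8 and 35.9, 6.02 and 16 for S100a9. With day 30 averaged, their adjusted p became 0.098 and 0.12, and without day 3 replicate 1 the fall of S100a9 did not pass. Neutrophil markers, which include these 2 genes, summed to 185 to 242 at day 3 and 60.2 to 64.4 at day 30. All 4 tested fell, 2 without day 3 replicate 1 and 1 with day 30 averaged, and their part in the monocyte list was not tested.

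Of 25 genes of resident macrophages, 23 rose and 1 fell, with a median of 2.94; Cx3cr1 among them belongs to the gate. Mrc1, the mannose receptor, rose from 311, 179 and 149.6 to 1998, 2019 and 2007 (3.30 ± 0.26, adjusted p = 1.6e-07). Gas6, the bridging ligand that links apoptotic cells to MERTK and AXL, rose from 23.1, 7.91 and 9.8 to 138, 133 and 137 (3.37 ± 0.26, adjusted p = 1e-07). Vsig4, a complement receptor, and Folr2, a folate receptor, rose by 4.45 and 2.58. Siglec1, a sialic acid receptor counted among the resident genes, went the other way, from 269, 242 and 285 to 137, 143 and 129 (-0.95 ± 0.17, adjusted p = 0.00032). Against day 7, 16 members were higher and 1 lower at day 30, and against day 0, 0 were higher and 1 was lower. Over all tested genes, 39.6% and 6.18% differed in these comparisons. The median difference of the list from day 0 was -0.58, and its summed signals were 8687 to 8981 at day 30 and 10255 to 11908 at day 0.

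Interferon-stimulated genes, the antiviral programme that type I interferon turns on through a STAT and IRF9 complex, were lower at day 30 without exception. All 32 tested members fell, against 20.3% of all genes, with a median of -2.83, and 32 did so with day 30 averaged. The promoter of 11 of 22 members found in the RefSeq table held the letters GAAANNGAAA, the core of the interferon-sensitive response element, within 250 bases before the start on either strand. The same letters occurred in 936 of 27025 genes (3.46%) of the table. For 4 of the genes with large falls the 100 bases around the match are shown, read on the strand of the gene in GRCm38.p6, with matches on either strand in capitals.
Isg15 (chr4:156200830-156200929, minus strand): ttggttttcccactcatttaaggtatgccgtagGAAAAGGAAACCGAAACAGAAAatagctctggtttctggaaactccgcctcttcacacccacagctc
Rsad2 (chr12:26456518-26456617, minus strand): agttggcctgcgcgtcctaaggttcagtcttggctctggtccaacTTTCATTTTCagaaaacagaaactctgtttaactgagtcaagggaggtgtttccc
Ifit3 (chr19:34583362-34583461, plus strand): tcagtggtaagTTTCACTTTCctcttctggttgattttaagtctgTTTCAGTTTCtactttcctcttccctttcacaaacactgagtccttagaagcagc
Ifit1 (chr19:34640759-34640858, plus strand): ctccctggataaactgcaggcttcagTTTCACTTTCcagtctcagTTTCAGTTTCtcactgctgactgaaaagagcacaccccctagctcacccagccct
A match describes letters and does not show binding. In Isg15, 3 matches overlap in a single run, and in Ifit3 and Ifit1 there are 2 separate matches each.

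Isg15, a ubiquitin-like protein, had signals of 161, 349.7 and 423 at day 3 and 9.36, 10.3 and 8.62 at day 30 (-4.79 ± 0.27, adjusted p = 3.5e-09). Rsad2, which encodes the antiviral enzyme viperin, had 967, 1718 and 1746 at day 3 and 53.3, 50.6 and 49.8 at day 30 (-4.77 ± 0.23, adjusted p = 9.2e-10). Replicate 1 was the lowest day 3 library for both genes and was still far above day 30. Isg20, an exonuclease, and Oasl1, an oligoadenylate synthetase-like protein, fell by 4.59 ± 0.40, adjusted p = 4.1e-07, and 4.47 ± 0.32, adjusted p = 5.7e-08. Irf7, the transcription factor that amplifies interferon production, fell by 4.40 and Stat2, a signal transducer of the receptor, by 2.82 on the log2 scale. The smallest fall in the list was that of Oas2 (-1.74 ± 0.19, adjusted p = 2.9e-06). Against day 0, where 6.18% of all tested genes differed, 10 members were higher and 0 lower at day 30. Rsad2, for one, was at 21.3 ± 2.13 (SD) on day 0 and differed from it by 1.23 ± 0.23, adjusted p = 0.0058. The list count against day 0 was made in the main fit only. Over all genes, calls against day 0 ran from 235 to 955 when 1 library was left out. Most of the calls against day 0 depended on taking the day 30 libraries as 3 samples.

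Cytokine and chemokine genes moved in both directions. Of 23 chemokine ligands, 7 rose and 7 fell (median 0.07, but -0.06 without day 3 replicate 1, 0.26 without day 3 replicate 2 and -0.13 over members averaging a signal of at least 5). Cxcl10, an interferon-induced attractant of T cells, fell from 605, 1353 and 1241 to 103, 119 and 108 (-3.19 ± 0.30, adjusted p = 8.4e-07). Ccl2, the ligand of CCR2, fell by 2.07 and Ccl7, another of its ligands, by 1.24. Cxcl3, a ligand of the neutrophil receptor CXCR2, was 28.6, 28.9 and 27 at day 3 and 3.28, 3.67 and 3.8 at day 30 (-2.67 ± 0.35, adjusted p = 2.2e-05). In the other direction, Ccl24, an eosinophil attractant, rose from 2.4, 2.72 and 1.85 to 26.8, 26 and 25.9 (3.04 ± 0.32, adjusted p = 2.4e-06), and day 30 was above day 7 as well (2.59 ± 0.32, adjusted p = 6e-05). Ccl22, a ligand of CCR4, rose from 0.958, 1.18 and 1.46 to 19.5, 20.8 and 16.2 (3.17 ± 0.33, adjusted p = 2.1e-06). Cxcl13, a B cell attractant, rose by 3.52. Of 10 receptors, 3 rose and 5 fell (median -0.55). Members called made up 60.9% of the ligands and 80% of the receptors, against 39.4% of all tested genes. Ccr1, a receptor for CCL3 and CCL5, fell from 109, 139.9 and 139.9 to 29.9, 36.7 and 33.8 (-1.91 ± 0.19, adjusted p = 1.7e-06). The rises in Ccr7 and Cxcr3 did not pass with day 30 averaged (adjusted p = 0.16 and 0.14), which left only the gate gene Cx3cr1 among receptors that rose.

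Of 15 inflammatory mediators, 6 fell and 2 rose (median -0.66), the rises numbering 1 with day 30 averaged or without any 1 of the 6 libraries. The median was -0.998 without day 3 replicate 1, -0.24 without day 3 replicate 2 and -0.19 over the 13 members averaging a signal of at least 5. Members called made up 53.3% of this list, against 39.4% of all tested genes. Irg1, the enzyme that makes itaconate, went from 35.4, 26.1 and 39.3 to 1.56, 1.27 and 2.54 (-3.64 ± 0.33, adjusted p = 5e-07). Il1rn, the interleukin 1 receptor antagonist, went from 359, 462 and 550.3 to 43.5, 39.3 and 40.4 (-3.43 ± 0.23, adjusted p = 2.7e-08). Il1b itself did not pass, at 487, 771 and 648 on day 3 and 532, 566 and 546 on day 30 (difference -0.19 ± 0.31, adjusted p = 0.67), with overlapping groups. Its 95% interval, -0.85 to 0.47, is wide enough to hold a change of close to 1 unit downward. Osm, oncostatin M, fell from 162, 277 and 235 to 37.4, 38.7 and 39 (-2.48 ± 0.32, adjusted p = 1.9e-05). Tnf, tumour necrosis factor, rose from 31.5, 29.2 and 37.3 to 88, 82.1 and 83.7 (1.35 ± 0.25, adjusted p = 0.00044), and Il10 had a difference of 0.41 ± 0.31, adjusted p = 0.33. Against day 0, where 6.18% of all tested genes differed, 9 of the mediators were higher at day 30 and 0 lower. This count was also made in the main fit only. Calls against day 0 depended on the libraries kept, and most of them on taking the day 30 libraries as 3 samples.

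The antigen presentation genes separated by class. Of 12 class II genes, which present peptides to helper T cells, 10 rose (median 1.03). H2-Aa, a class II alpha chain, rose from 593, 956 and 696 to 4792, 5149 and 4840.2 (2.75 ± 0.23, adjusted p = 2.4e-07). H2-Eb1, a beta chain, rose from 130.0, 208 and 156 to 1285, 1395 and 1296 (3.03 ± 0.21, adjusted p = 3e-08). Cd74, the invariant chain, had 936, 1878 and 1304 at day 3 and 5985, 6634 and 6114 at day 30 (2.24 ± 0.26, adjusted p = 6.6e-06), and in none of the 3 genes did a day 3 library come near day 30. The 2 members that fell were not class II chains but the lysosomal enzymes Ctss, cathepsin S, and Ifi30, a thiol reductase, with differences of -1.39 and -1.55. With day 30 averaged, 5 rose, and Ciita, the class II transactivator, was not among them (adjusted p = 0.0033, then 0.091). Dendritic cell markers, whose defining genes include Zbtb46 and Flt3, summed to 16.1 to 40.0 at day 3 and 88.3 to 96.9 at day 30, with 6 of 9 higher, or 2 with day 30 averaged. B cell markers, another source of class II, summed to 69.7 to 113 and 235 to 252, with 2 of 4 higher, also with day 30 averaged. The part of either list in the class II rise was not tested.

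Of 12 class I and immunoproteasome genes, which serve presentation to cytotoxic T cells, 11 fell (median -1.30), or 7 with day 30 averaged. Nlrc5, the class I transactivator, fell from 137, 172 and 155 to 35.9, 34.3 and 35 (-2.10 ± 0.15, adjusted p = 5.2e-08). Tap1, a peptide transporter, fell from 96.1, 147 and 147 to 39.3, 37.3 and 34.3 (-1.76 ± 0.20, adjusted p = 4.6e-06), and Psmb9, an immunoproteasome subunit, from 137, 234 and 241 to 58.6, 59.5 and 61 (-1.71 ± 0.22, adjusted p = 1.8e-05). The groups did not overlap for these genes. The class I chains H2-K1 and H2-D1 and B2m fell by 0.68, 0.60 and 0.61, falls that did not pass with day 30 averaged (adjusted p = 0.16, 0.21 and 0.27).

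Complement genes also divided. C1qa and C1qc, chains of the recognition protein C1q, rose from 135, 65.3 and 86.3 to 420.4, 435 and 402 (2.19 ± 0.23, adjusted p = 2.3e-06) and from 328, 161 and 206 to 891, 922 and 867 (2.01 ± 0.23, adjusted p = 6.1e-06). Cfb, factor B, which drives the alternative pathway, fell from 347, 383 and 471 to 22.4, 22.9 and 19.9 (-4.13 ± 0.21, adjusted p = 1.6e-09), with 73.0% of its words in an overlapping gene model, and C3 fell by 1.93. In all, 6 of 12 rose and 3 fell (median 0.85).

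Of 14 Toll-like receptor genes, 6 fell and 2 rose (median -0.12, or -0.26 without day 3 replicate 1), or 3 and 0 with day 30 averaged. Tlr9, which senses unmethylated DNA, fell from 217, 372 and 398 to 92.5, 89.2 and 82.5 (-1.84 ± 0.23, adjusted p = 1.4e-05), and Myd88, the shared adaptor, from 53.3, 78.2 and 77 to 17.8, 20.9 and 20.5 (-1.75 ± 0.18, adjusted p = 1.9e-06). Tlr4, the endotoxin receptor, had nearly equal signals, 124, 105 and 124 at day 3 and 119, 122 and 123 at day 30 (difference 0.05, 95% interval -0.37 to 0.47). Of 6 Fc receptors, 2 rose and 3 fell (median -0.32, or 0.02 under quantile normalisation), the rises numbering 1 with day 30 averaged. Fcgr1, the high-affinity receptor for IgG, fell from 490.3, 676 and 722 to 96.8, 96.5 and 90.8 (-2.70 ± 0.17, adjusted p = 1.2e-08), while Fcgrt, the neonatal receptor that recycles IgG, rose from 10.3, 9.33 and 7.68 to 72.5, 79.1 and 77.2 (2.94 ± 0.15, adjusted p = 1.7e-09). Among C-type lectins, Clec4e, the Mincle receptor for damaged cells and mycobacterial lipid, fell from 202, 338 and 318 to 22.5, 23.6 and 22.3 (-3.56 ± 0.30, adjusted p = 2.7e-07). Its day 30 level was above both day 7 (1.49 ± 0.30, adjusted p = 0.0015) and day 0 (2.14 ± 0.30, adjusted p = 0.00079). Of the 15 lectins tested, 7 rose and 3 fell (median 0.52, or 0.79 without day 3 replicate 1). Shares called were 57.1% for Toll-like receptor genes, 83.3% for Fc receptors and 66.7% for lectins, against 39.4% of all tested genes.

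Receptors and bridging molecules of efferocytosis, the uptake of dying cells, rose in 8 and fell in 7 of 20 cases (median 0.27, or 0.52 without day 3 replicate 1 and 0.18 without day 3 replicate 2), the falls numbering 2 with day 30 averaged. Besides Cd163, Timd4, Gas6 and Mrc1, the class contains Pros1 and Stab1, which rose by 1.69 and 1.95. Axl, the partner of MERTK, had signals of 219, 266 and 295 at day 3 and 263, 260.5 and 265 at day 30 and a 95% interval of -0.31 to 0.36. Msr1, scavenger receptor A, fell by 1.77. In this list 75% were called, against 39.4% of all tested genes. The genes often used to mark alternative activation likewise had no common direction, as 6 of 11 rose (Retnla, Mrc1, Mgl2 and Cd163 among them) and 5 fell (median 0.94), the falls numbering 3 with day 30 averaged. Tgm2, transglutaminase 2, fell by 4.43 beside Arg1, and Chi3l3, the chitinase-like protein Ym1, by 2.25, the last not passing with day 30 averaged (adjusted p = 0.15).

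**Figure D3:**
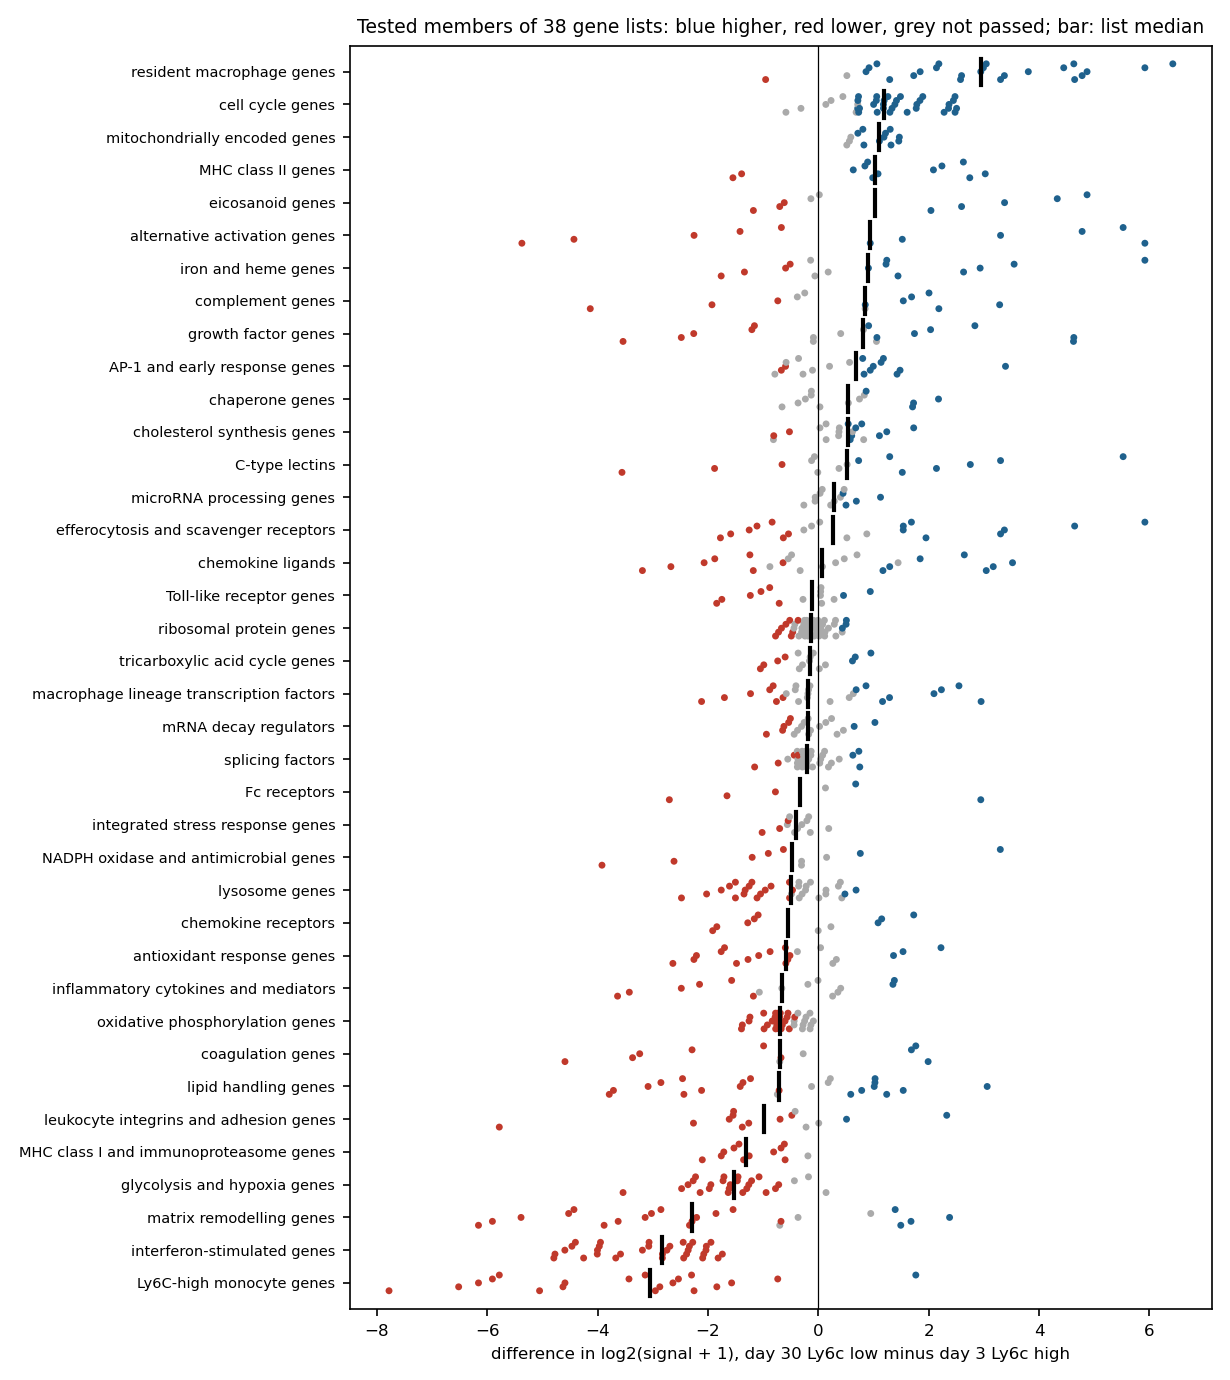
Each point is a tested gene of 1 of 38 lists, placed by its difference in log2(signal + 1), day 30 minus day 3, and coloured by call; the black bar marks the list median. Medians run from -3.05 for Ly6C-high monocyte genes to 2.94 for resident macrophage genes, and every point of the interferon list lies below 0.

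Glycolysis and hypoxia genes were lower at day 30. Of 26 tested, 23 fell and 0 rose, with a median of -1.53. Hypoxia-inducible factors bind DNA at the letters ACGTG, which occurred within 250 bases before the start, on either strand, in 16 of 26 of these genes and in 4998 of 27025 genes (18.5%) of the RefSeq table. For 3 glycolytic enzymes and the glucose transporter Slc2a1 the 100 bases around the match are shown in GRCm38.p6 on the gene's strand, matches in capitals.
Pgk1 (chrX:106186921-106187020, plus strand): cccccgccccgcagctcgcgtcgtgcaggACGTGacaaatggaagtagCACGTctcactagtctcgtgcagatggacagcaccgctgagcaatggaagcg
Ldha (chr7:46845704-46845803, plus strand): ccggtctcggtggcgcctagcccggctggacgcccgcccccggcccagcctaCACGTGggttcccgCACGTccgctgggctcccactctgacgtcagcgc
Slc2a1 (chr4:119108645-119108744, plus strand): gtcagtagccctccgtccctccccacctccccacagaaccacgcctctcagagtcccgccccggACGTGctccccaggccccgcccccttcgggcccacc
Pkm (chr9:59657104-59657203, plus strand): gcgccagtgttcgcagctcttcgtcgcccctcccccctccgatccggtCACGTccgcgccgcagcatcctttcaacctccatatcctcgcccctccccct
The letters are short and common, and a match does not show binding.

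Pkm, pyruvate kinase, had signals of 340.1, 514 and 521 at day 3 and 80.5, 87.2 and 72.8 at day 30 (-2.48 ± 0.22, adjusted p = 4e-07), and 25.8% of its words occur in other genes. Slc2a1, Pgk1 and Ldha fell by 2.22, 2.14 and 1.73 on the log2 scale. Hif1a, the inducible subunit of the factor, fell from 324, 435 and 421 to 80.1, 80.4 and 79.9 (-2.27 ± 0.15, adjusted p = 2e-08), and Slc16a3, a lactate exporter, from 28.7, 50.1 and 50.4 to 7.25, 8.76 and 6.15 (-2.36 ± 0.30, adjusted p = 1.5e-05). Vegfa, the endothelial growth factor, fell from 66.5, 121 and 77.8 to 6.94, 6.5 and 5.96 (-3.54 ± 0.35, adjusted p = 1.2e-06). The groups were far apart for each of them. At day 7, Vegfa was at 1.59 ± 0.401 (SD), and day 30 was higher than that by 1.54 ± 0.35, adjusted p = 0.0031, whereas Pkm was at 224 ± 75.5 (SD), with day 30 lower by 1.42 (adjusted p = 0.00024).

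Mitochondrial genes are given by the genome that encodes them. Of 38 nuclear genes of oxidative phosphorylation, 27 fell and 0 rose (median -0.69), but with day 30 averaged only 7 fell. Cox5b, a subunit of complex IV, fell from 60.2, 68.5 and 74.7 to 23.4, 24.3 and 27.8 (-1.39 ± 0.17, adjusted p = 1.1e-05; 11.9% of its words are shared), and Uqcrq, of complex III, from 33.1, 41.8 and 42.9 to 15.2, 12.6 and 15.6 (-1.38 ± 0.18, adjusted p = 1.9e-05). Of 13 mitochondrially encoded genes, 10 rose and 0 fell (median 1.11), or 5 with day 30 averaged. mt-Nd2, of complex I, rose from 163, 207 and 153 to 501, 449 and 493 (1.47 ± 0.22, adjusted p = 8.7e-05) and mt-Nd1 from 514, 683 and 547 to 1438, 1361 and 1482 (1.30 ± 0.24, adjusted p = 0.00052). The libraries were of total RNA, and mt-Rnr1, mt-Rnr2, Gm26924 and Lars2, the most abundant RNAs, took 25.5% to 32.4% of the reads at day 3 and 25.5% to 25.9% at day 30. The tricarboxylic acid cycle had 3 members higher and 4 lower of 15 (median -0.16), or 1 and 2 with day 30 averaged, and the shares called are near the 19.2% higher and 20.3% lower of all tested genes. Idh2, isocitrate dehydrogenase, rose from 12.5, 13 and 10.2 to 23.5, 25.9 and 22.2 (0.95 ± 0.17, adjusted p = 0.00044), and Mdh2, malate dehydrogenase, fell by 1.05.

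Lipid handling genes moved in both directions, 8 higher and 11 lower of 23 (median -0.71), the rises numbering 5 with day 30 averaged. Gpnmb, a glycoprotein of lipid-laden macrophages, was uneven at day 3, with 667, 196 and 469, and was at 46.9, 42.7 and 47.5 on day 30 (-3.09 ± 0.45, adjusted p = 5.7e-05). Fabp5, a fatty acid carrier, fell from 299, 191 and 272 to 19, 19.6 and 15.8 (-3.71 ± 0.30, adjusted p = 2.2e-07). Nr1h3, the oxysterol receptor LXR alpha, fell from 13.6, 9.44 and 15 to 1.79, 2.26 and 2.28 (-2.12 ± 0.28, adjusted p = 2.6e-05), while Pltp, phospholipid transfer protein, rose from 38.5, 30.3 and 22.6 to 249.6, 272 and 247 (3.06 ± 0.20, adjusted p = 1.6e-08). Apoe rose from 1011, 756 and 854 to 1795, 1809.8 and 1710.5 (1.03 ± 0.20, adjusted p = 0.00077), which did not pass with day 30 averaged (adjusted p = 0.055). Trem2, a lipid receptor, did not pass, and its day 30 values of 45.8 to 48.3 lay inside the day 3 range of 28.9 to 85.6. Shares called were 82.6% for lipid handling and 52.6% for cholesterol synthesis, against 39.4% of all tested genes. Of 19 cholesterol synthesis genes, 8 rose and 2 fell (median 0.54), but with day 30 averaged 1 rose, Lss, lanosterol synthase (1.73 ± 0.22, adjusted p = 1.5e-05).

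Enzymes of eicosanoid synthesis and breakdown included large rises at day 30. Alox5, the lipoxygenase that begins leukotriene synthesis, rose from 3.64, 1.77 and 2.52 to 67.1, 77.5 and 68 (4.33 ± 0.20, adjusted p = 5.6e-10). Ptgs1, the constitutive cyclooxygenase, rose from 6.32, 5.78 and 6.88 to 75.1, 79.4 and 70.6 (3.38 ± 0.14, adjusted p = 3.2e-10), and Hpgd from 10.8, 11.2 and 10.9 to 337, 339 and 373 (4.87 ± 0.24, adjusted p = 1e-09). In each of these the day 3 and day 30 libraries formed separate sets, though the day 3 signals of Alox5 were low and uneven. Ptgs2, the inducible cyclooxygenase, went the other way (-1.18 ± 0.24, adjusted p = 0.0013), a fall that did not pass with day 30 averaged (adjusted p = 0.051). Of 10 genes, 5 rose and 3 fell (median 1.03), and none of the falls passed with day 30 averaged.

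Iron, antioxidant and lysosomal genes were next compared. Slc40a1, the iron exporter ferroportin, rose from 9.1, 4.01 and 8.47 to 48.4, 43.8 and 50.8 (2.63 ± 0.27, adjusted p = 1.7e-06), and Cp, the ferroxidase ceruloplasmin, from 11.1, 5.55 and 4.9 to 90.2, 89.6 and 89.9 (3.55 ± 0.26, adjusted p = 7.8e-08). Hmox1, the heme-degrading oxygenase, fell from 399, 542 and 608 to 149.8, 148 and 150.3 (-1.76 ± 0.27, adjusted p = 0.00011). In all, 8 of 15 iron and heme genes rose and 4 fell (median 0.91), the falls numbering 2 with day 30 averaged. Of 20 antioxidant genes, 13 fell and 3 rose (median -0.59). Gsr, glutathione reductase, fell from 74.7, 132 and 112 to 15.9, 15.1 and 16.4 (-2.64 ± 0.24, adjusted p = 4.9e-07), whereas Cat, catalase, rose by 1.54 and the metallothioneins Mt1 and Mt2 by 1.36 and 2.22. Of 33 lysosome genes, 17 fell and 2 rose (median -0.49), and neither rise passed with day 30 averaged. Ctsd, cathepsin D, fell from 1491, 894 and 1265 to 388, 393 and 387 (-1.61 ± 0.20, adjusted p = 1.5e-05), with 32.4% of its words in the gene model Gm49369. At day 7 it was at 4374 ± 1182 (SD), and day 30 was lower than that by 3.45 (adjusted p = 8.4e-08). Gla, alpha-galactosidase A, fell from 142, 159.6 and 164 to 25.3, 29.1 and 26.6 (-2.48 ± 0.16, adjusted p = 1.3e-08). Shares called were 80% for iron and heme genes, 80% for antioxidant genes and 57.6% for lysosome genes, against 39.4% of all tested genes.

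Matrix and coagulation genes were largely lower. Of 23 matrix remodelling genes, 16 fell and 4 rose, with a median of -2.29. Spp1, osteopontin, varied at day 3, with signals of 1883, 663 and 1278, and was at 46.8, 52.3 and 50.5 on day 30 (-4.53 ± 0.34, adjusted p = 9e-08), and 11.6% of its words occur in the gene model Gm42793. Mmp8, a collagenase, fell from 66.7, 60.6 and 64.1 to 0.39, 0.565 and 0.697 (-5.39 ± 0.42, adjusted p = 1.3e-07), while Mmp9, a gelatinase, and Timp2, an inhibitor of metalloproteinases, rose by 1.68 and 2.38. F10, coagulation factor X, fell from 40.9, 92 and 95.8 to 2.18, 1.98 and 1.84 (-4.59 ± 0.39, adjusted p = 2.7e-07), and F5, factor V, from 16.4, 53.8 and 38.4 to 2.5, 3.96 and 1.58 (-3.24 ± 0.48, adjusted p = 6.7e-05). Tfpi, the inhibitor of the tissue factor pathway, rose from 6.8, 4.96 and 4.5 to 22.7, 27.1 and 23.1 (1.99 ± 0.36, adjusted p = 0.00044). Coagulation genes numbered 3 higher and 6 lower of 11 (median -0.70). Fibroblast markers, at summed signals of 414 to 576 on day 3 and 265 to 273 on day 30, moved with the matrix list. Of the 14 markers 7 fell and 4 rose, none was at 0 in either group, and with day 30 averaged 2 and 1 passed. Without day 3 replicate 3, 4 fell. Col1a1, the collagen I alpha chain, went from 57.9, 74.3 and 87.2 to 10.8, 14.1 and 11.4 (-2.49 ± 0.55, adjusted p = 0.002; 0.053 as the adjusted p with day 30 averaged). The part of fibroblast RNA in the matrix result was not tested.

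Growth factors changed in both directions, 7 higher and 5 lower of 17 (median 0.82), the falls numbering 3 with day 30 averaged. Beside Igf1 and Bmp2, Pdgfb, a platelet-derived growth factor, rose from 2.78, 3.31 and 2.25 to 24.5, 24.3 and 29 (2.84 ± 0.25, adjusted p = 4.8e-07). The share of growth factors called was 70.6%, against 39.4% of all tested genes. Inhba, the activin A chain, and Tgfb1 fell by 2.26 and 1.16, the latter not passing with day 30 averaged (adjusted p = 0.051). Endothelial markers Kdr and Flt1, both VEGF receptors, fell by 3.15 ± 0.73, adjusted p = 0.003, and 2.47 ± 0.65, adjusted p = 0.0069, neither passing with day 30 averaged (adjusted p = 0.066 and 0.1), while the other 8 tested did not pass. The endothelial list summed to 149.9 to 207 at day 3 and 62.2 to 69.1 at day 30, with no marker at 0 in either group.

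Cell cycle genes were higher at day 30. Of 37 tested, 30 rose and 0 fell, with a median of 1.19, and 18 rose with day 30 averaged. Mki67, the Ki-67 proliferation antigen, rose from 35, 37.2 and 41.2 to 218, 207 and 219.5 (2.48 ± 0.26, adjusted p = 2.4e-06). Top2a, a topoisomerase of dividing cells, rose from 12.3, 11.3 and 11.6 to 68.2, 71.2 and 70.7 (2.48 ± 0.17, adjusted p = 2.7e-08), and Cenpf, a kinetochore protein, from 3.93, 3.42 and 4.1 to 26.2, 26.9 and 25.9 (2.51 ± 0.23, adjusted p = 8e-07). All 3 were well separated between groups. Top2a was at 70.3 ± 3.91 (SD) on day 0, and the difference of day 30 from that was -0.00 ± 0.17, adjusted p = 0.99. Pcna (0.23 ± 0.13, adjusted p = 0.18) and E2f1 (-0.59 ± 0.27, adjusted p = 0.095) were among the 7 members that did not pass.

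**Figure D4:**
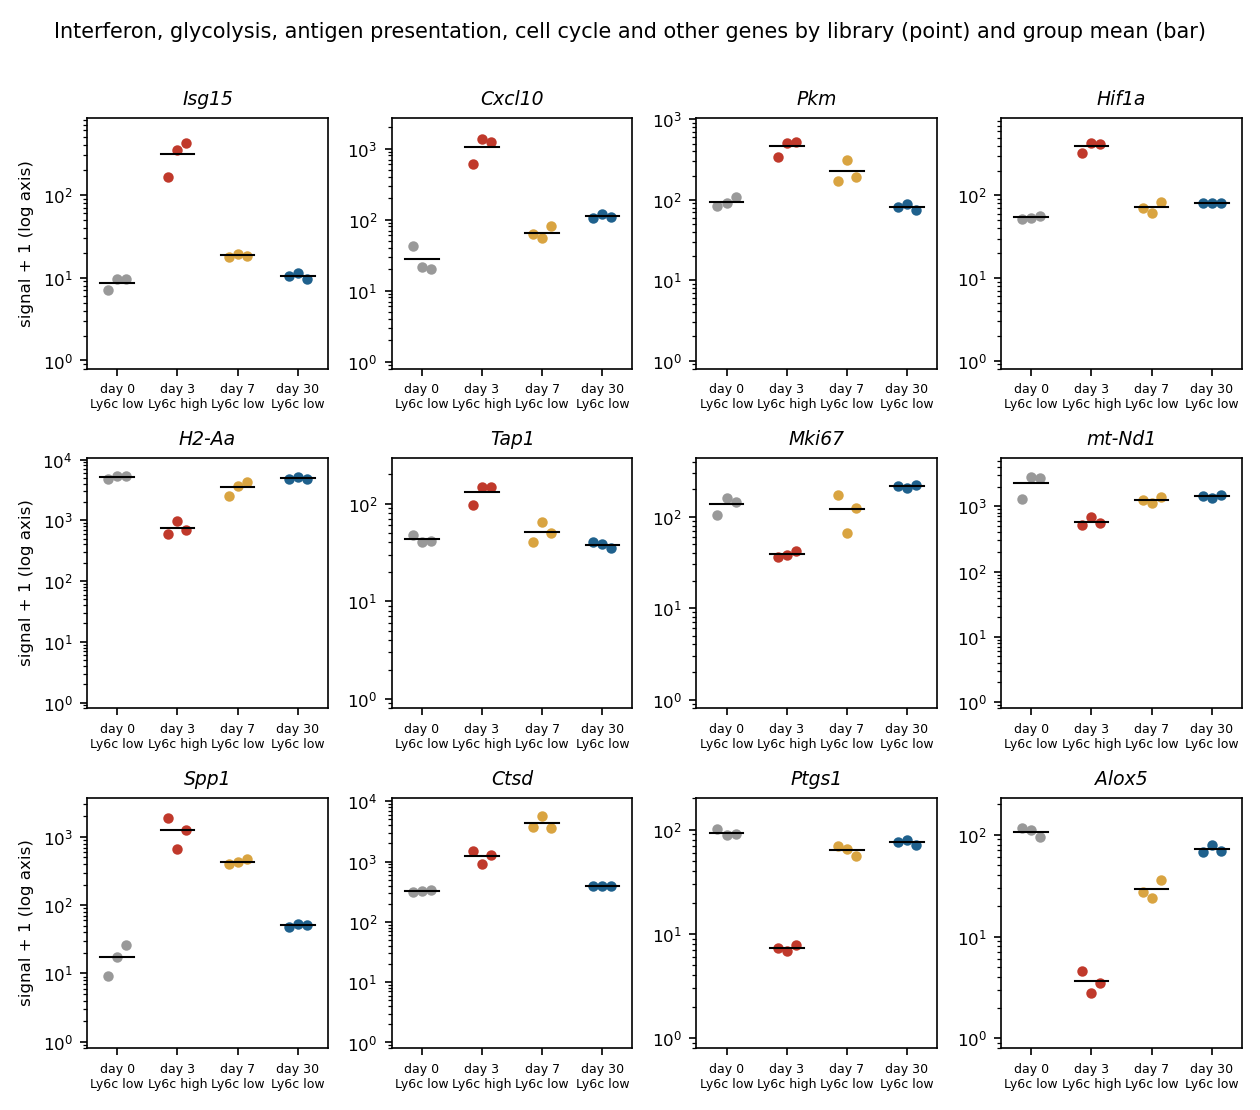
Each panel plots signal + 1 on a log axis for 1 gene, with a point for each library and a bar for the group mean, at days 0, 3, 7 and 30. Isg15, Cxcl10, Pkm, Hif1a and Tap1 are highest at day 3, H2-Aa, Mki67, Ptgs1 and Alox5 are lowest there, and Ctsd peaks at day 7.

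Transcription factors of the macrophage lineage held mixed directions, 8 higher and 7 lower of 26 (median -0.18, or 0.02 with 10 higher and 6 lower under quantile normalisation), the falls numbering 3 with day 30 averaged. The share of these factors called was 57.7%, against 39.4% of all tested genes. Irf4 rose from 6.32, 9.44 and 5.43 to 58.9, 60.2 and 61 (2.95 ± 0.21, adjusted p = 4.4e-08), Klf2 from 11.6, 11.8 and 13.9 to 81, 76.3 and 75 (2.55 ± 0.25, adjusted p = 1.2e-06) and Mef2c from 69.8, 76.4 and 75.8 to 316, 313 and 330.1 (2.10 ± 0.22, adjusted p = 2.1e-06). The pan-myeloid factor Spi1 fell from 117, 193 and 193 to 102, 117 and 95.9 (-0.64 ± 0.22, adjusted p = 0.032), which did not pass with day 30 averaged (adjusted p = 0.25). Among AP-1 and early response genes, 9 of 18 rose and 2 fell (median 0.69), or 3 and 0 with day 30 averaged. Egr1 rose from 57.5, 70.7 and 68.4 to 708, 713 and 666 (3.39 ± 0.31, adjusted p = 6.9e-07), and Myc from 15.4, 11.7 and 12.3 to 30.9, 31.9 and 29.7 (1.18 ± 0.19, adjusted p = 0.00013). Fos itself had signals of 602, 692 and 702 at day 3 and 971, 1002 and 979 at day 30 and did not pass (0.57 ± 0.32, adjusted p = 0.17). The chaperones Hspa1a and Hspa1b, which share most of their sequence, rose by 1.73 and 2.18 beside Hspb1, with 48.8% of its words in a pseudogene, and Dnaja1, but day 3 was uneven (Hspa1a at 134, 492 and 237), and none of the 13 chaperone genes passed with day 30 averaged.

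Genes that act on RNA are given with the share whose 95% interval lay within 2-fold of no change, which was 49.0% over all tested genes. The share called in each of these lists, 22.6% to 36.8%, was under the 39.4% of all tested genes. Of 13 microRNA processing genes, 4 rose, Dicer1, Dgcr8, Ago1 and Ago4, and none passed with day 30 averaged (adjusted p from 0.068 for Ago4 to 0.29 for Dgcr8). Dicer1, the enzyme that cuts precursors, had signals of 36.1, 42.3 and 38.7 at day 3 and 52.6, 51.2 and 56.9 at day 30 (0.45 ± 0.14, adjusted p = 0.022). For 11 of the 13 the interval lay within that range. The same held for 26 of 31 splicing factors, of which 3 rose and 4 fell, for 14 of 19 mRNA decay regulators, with 2 and 5, and for 41 of 45 ribosomal protein genes, with 3 and 8. With day 30 averaged, these counts became 0 and 1, 1 and 0, and 0 and 1. Under quantile normalisation their directions shifted, to 6 higher and 1 lower, 6 and 0, and 11 and 1, so no direction is given for these 3 lists.

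Leukocyte integrins and adhesion molecules were mostly lower, with 9 of 14 lower and 2 higher (median -0.98), the rises numbering 1 with day 30 averaged. Itgb7, a gut-homing integrin chain, fell from 22.4, 49.5 and 45.3 to 7.17, 6.36 and 7.23 (-2.26 ± 0.30, adjusted p = 2.7e-05), and Vcam1, an adhesion ligand, rose from 6.61, 6.02 and 6.35 to 35.3, 35.6 and 36.4 (2.33 ± 0.22, adjusted p = 8.9e-07). Of the phagocyte oxidase and antimicrobial genes, 5 of 10 fell and 2 rose (median -0.47), or 3 and 1 with day 30 averaged. Slpi, a protease inhibitor, fell from 23, 51.7 and 51.6 to 1.64, 1.13 and 2.41 (-3.92 ± 0.40, adjusted p = 1.9e-06). Cybb, the catalytic oxidase subunit, did not pass, with 847 to 1191 at day 3 and 1132 to 1183 at day 30. Lyz1 rose from 6.61, 8.15 and 3.97 to 68.2, 67.8 and 68.2 (3.30 ± 0.28, adjusted p = 2.5e-07), and 16.1% of its words also occur in Lyz2. In the integrated stress response, 3 of 12 tested genes fell and 0 rose (median -0.40). That is 25% called, against 39.4% of all tested genes, of which 20.3% were lower. These falls depended on taking the day 30 libraries as 3 samples.

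Marker lists of the cell types that a heart sort could hold were summed in each library. Summed signals of macrophage markers were 7855 to 11191 at day 3 and 12429 to 12909.7 at day 30. The members did not move together, as 4 of 9 rose and 4 fell, with differences from -2.70 to 1.60. Fewer of these rises held with day 30 averaged, while the falls did. Cardiomyocyte markers summed to 13 to 19.3 and 27.5 to 28.1, and none of 13 passed with limma as fitted here (2 at an unadjusted p under 0.05). In other settings 1 was higher with edgeR, 3 with DESeq2 or a pseudocount of 0.1, 2 with the deposited log2 values, 5 in a fit of the compared groups alone or without the first day 0 and second day 7 libraries, 7 with array weights and 1 without day 3 replicate 3, and 1 was lower under quantile normalisation. Myl3 was at 0 in all day 3 libraries. T and NK cell markers summed to 6.26 to 11 and 16.1 to 20.7, with Gzma alone called higher of 7, and Cd3g at 0 in all day 30 libraries. The number higher was 3 with edgeR, DESeq2, a pseudocount of 0.1, the compared groups alone or without the first day 0 and second day 7 libraries, 4 with array weights, and 0 with day 30 averaged, a pseudocount of 5, a robust prior, or without day 3 replicate 2, day 30 replicate 1 or day 30 replicate 3. Among the B cell markers, Ighm, an immunoglobulin heavy chain gene, rose from 62.2, 111 and 91.1 to 229.5, 241 and 227 (1.43 ± 0.20, adjusted p = 4.1e-05) and Cd79b, a B cell receptor chain, from 3.64, 1.65 and 1.59 to 7.17, 9.47 and 7.86 (1.52 ± 0.26, adjusted p = 0.00027). Mast cell markers were nearly absent, at 0.575 to 0.794 and 2.54 to 3.61, with Cma1, Cpa3, Mcpt4, Tpsb2 and Fcer1a at 0 in all day 3 libraries and the last 2 at 0 in all day 30 libraries. Mural markers summed to 22.8 to 34.4 and 31 to 36.1, and erythroid markers to 3.31 to 23.8 and 18.9 to 23.6. Among tested members, 1 of 5 mast cell markers rose, and 1 of 7 mural markers rose and 1 fell. The mast cell rise and the mural fall did not pass with day 30 averaged. Markers of Ly6C-low patrolling monocytes summed to 303 to 571 and 322 to 341. Among the 7 tested, 2 rose and 1 fell (median -0.36), and fewer rises held with day 30 averaged. Spn, the sialomucin CD43, was higher at day 30 (2.06 ± 0.24, adjusted p = 6.6e-06) and Itgal, an integrin chain, lower (-1.61 ± 0.33, adjusted p = 0.0011).

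**Figure D5:**
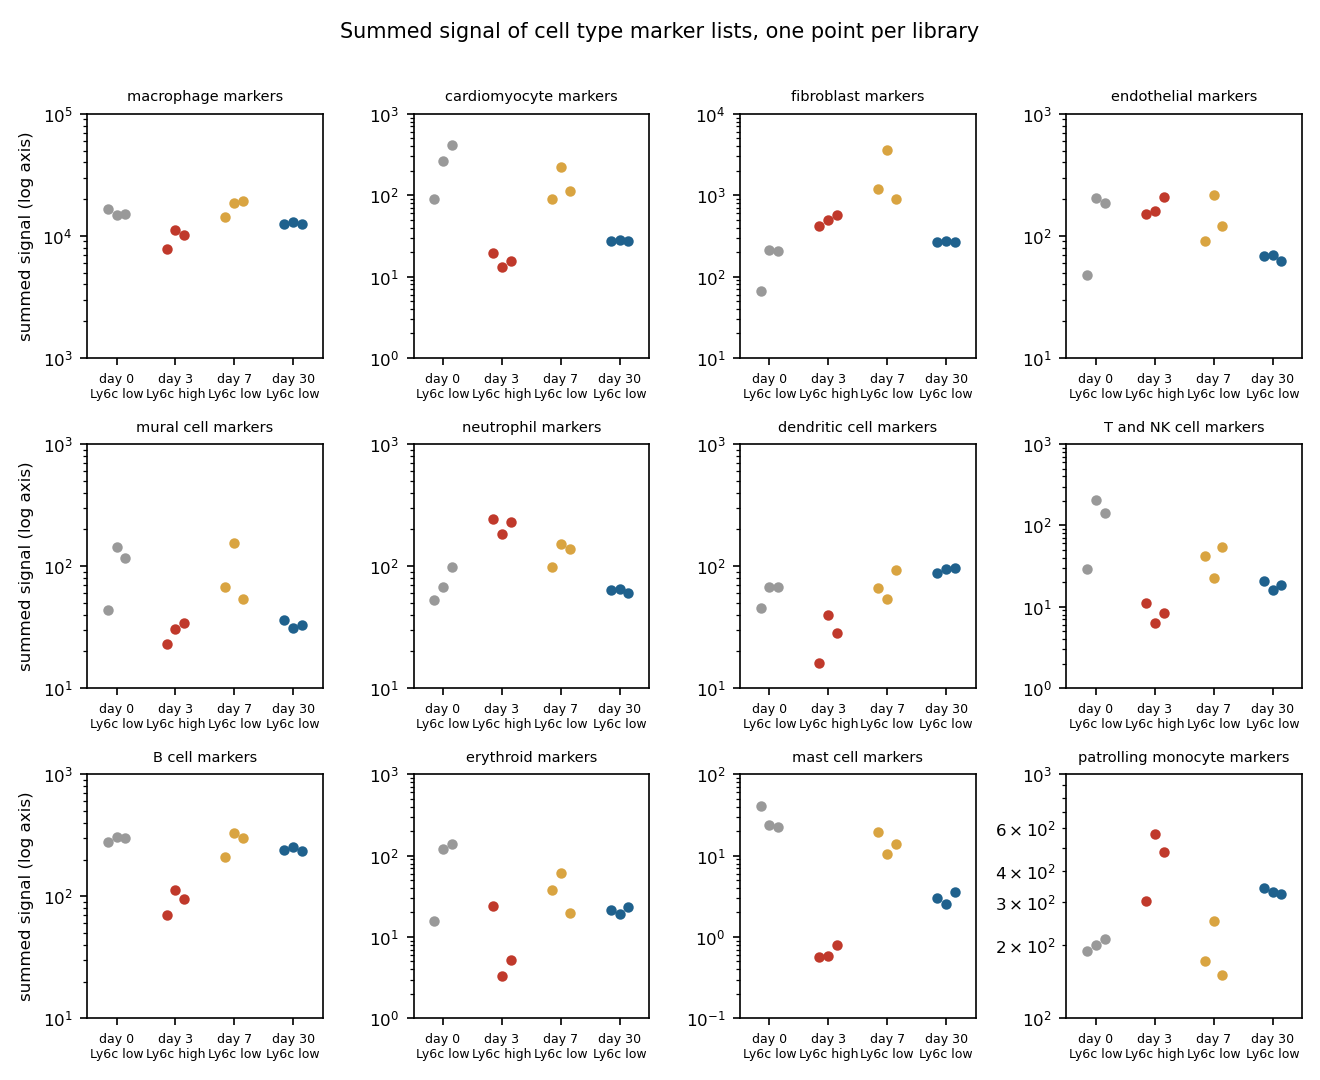
Each panel plots the summed signal of a list of cell type markers on a log axis, with a point for each library at days 0, 3, 7 and 30. Macrophage markers lie at 7855 to 11191 on day 3, and at day 30 fibroblast markers lie at 265 to 273 and dendritic cell markers at 88.3 to 96.9.

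A last group of genes differed least. Among those averaging 100 or more in signal, Cbl, a ubiquitin ligase, had the narrowest 95% interval around 0, at -0.26 to 0.25, with signals of 175, 189.7 and 185 at day 3 and 183, 176 and 187 at day 30. Ctnnb1, beta-catenin, had 206, 189 and 213 at day 3 and 206, 185 and 211 at day 30 (interval -0.30 to 0.28), and Crk, an adaptor protein, had 116, 110.2 and 107 at day 3 and 109.7, 106 and 115 at day 30 (interval -0.30 to 0.28). Sptan1, Rpl14 (26.7% of its words are shared), Pcyt1a, Rbm5 and Ino80d were of the same kind. The day 3 and day 30 values of each overlapped. Under quantile normalisation the differences of Cbl and Ctnnb1 were 0.35 and 0.36.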

How the data were processed

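RNA-seq of sorted heart cells was analysed from a table of 14460 genes and 12 libraries. Per the submitters' processing notes, the authors used cutadapt 1.3, RSEM 1.2.20, edgeR 3.14.0 and the build GRCm38. The first 12 columns hold the signal, a normalised count deposited on a linear scale, and the others its log2 as deposited by the authors, with values under 1 set to 0. The signal was a whole multiple of 1 step in every library (100% of values whole within 0.02 reads), which recovered the reads behind each count in the deposited table.

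limma 3.58.1 (R 4.3.3) was fitted to log2(signal + 1) of the 12879 genes averaging a signal of 1 or more, with 4 group means over 12 libraries, an intensity trend, two-sided tests and Benjamini-Hochberg adjustment over all genes. Members and the 50 gene lists (864 entries) were chosen with earlier results of these data known. The genes named were the 12 largest rises and falls, up to 4 of each list by size, the gate and lineage genes, the 8 with the narrowest interval around 0, and list members that moved against or stood out from their list. Replicate numbers were not used to pair libraries. Same-numbered day 3 and day 30 libraries correlated at -0.007 to 0.030 in their deviations, and differently numbered ones at -0.066 to 0.054. Over all groups the ranges were -0.083 to 0.210 and -0.231 to 0.195. Whether a number marks a shared preparation was not tested. Alternatives included edgeR 4.0.16 and DESeq2 1.42.0 on recovered reads. Coordinates are from GENCODE M21, which held 14232 identifiers (98.4%). Promoters are from RefSeq (GRCm38.p6). Shared sequence was counted in words of 50 bases. The script was tested on simulated data. A few genes are not reported here.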

Additional observations from a re-analysis of the deposited data

How the results depend on the processing

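The main comparison called 5079 genes. It called 5066 with edgeR and 5337 with DESeq2 on recovered reads. Moves of over 1.5 times came from array weights (7792 genes, 3860 higher and 3932 lower) and from averaging the day 30 libraries as 1 sample (2013 genes, 956 higher and 1057 lower). The same averaging gave 815 genes against day 7, 14 against day 0 and 285 list genes instead of 474. A pseudocount of 5 left 1466 genes past 2-fold instead of 2640, since it shrinks differences of low genes. A fit of the compared groups alone called 6927 genes in the main comparison instead of 5079, and 2674 against day 0 instead of 796. Without the first day 0 and second day 7 libraries, the main comparison called 6563 genes. Leaving out 1 library at a time gave 3882 to 4962 genes in the main comparison (1860 to 2432 higher, 1998 to 2530 lower, 2430 to 2881 past 2-fold), 3474 to 5502 against day 7 and 235 to 955 against day 0. With the replicate block, which rests on shared numbers only, 5110 genes were called. Calls of named genes were tallied for the 177 that passed and were picked by size of change or as gate and lineage genes. None of these lost its call with the replicate block, 133 kept it in every setting run, and none reversed. The others lost it with day 30 averaged. Other list members named above, some of which lost their call, are not in this tally. Under quantile normalisation, Cbl and Ctnnb1, which did not pass, went from -0.01 to 0.35 and 0.36. Why the calls moved with the weights and the groups fitted was not tested; averaging leaves fewer samples. Reads limit the low genes: 3 reads equal a signal of up to 0.543.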
